A study of Mus musculus with 9 samples.

Results

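Choroid plexus transcripts were followed here in RNA sequencing libraries of dissected mouse midbrain. The 10 genes were Ttr, Enpp2, Sostdc1, Folr1, Kl, Clic6, Kcne2, Aqp1, Slc4a5 and Tmem72, found by symbol among the 47729 Ensembl identifiers of the count files. They were selected on their strong spread between the dissections in these same 9 libraries, so their levels, their joint variation and their genotype differences are given below as a description, and no test of them stands as independent evidence. The tissue came from mice of 180 days (P180, 6 months) on a background labelled C57/Bl6 and given as C57BL/6J in the study's methods. All animals carried Pitx3-Cre/+, in which Cre is made from the Pitx3 locus of midbrain dopamine neurons, and Rosa-lox-stop-lox-Yfp, a reporter that Cre switches on. The groups differed in Dot1l, the methyltransferase of lysine 79 of histone H3, and were Dot1l(+/+) controls, Dot1l(fl/+) with 1 floxed allele and Dot1l(fl/fl) with both alleles floxed. Each genotype had 3 libraries, and each library pooled the dissections of 3 mice, so that variation between single mice is averaged within a pool.

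The choroid plexus is a folded epithelium over a vascular core that lines parts of the brain ventricles and secretes the cerebrospinal fluid. Its cells make transthyretin in large amounts, carry ions, water, bicarbonate and folate between blood and fluid, and have tight junctions that form the barrier between them. The plexus is not dopaminergic tissue.

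Library totals lay between 16422135 and 28403218 counts (median 25414332). The labels name the tissue as midbrain dopamine neurons, but it was a dissection and not a purified cell type. The summed level of 10 dopamine neuron genes (Th, Slc6a3 and others) was 472.9 to 691.6 counts per 1000000 (CPM), beside 10928.2 to 12490.9 CPM for 12 oligodendrocyte genes and 4203.8 to 4793.2 CPM for 8 astrocyte genes. The deposited design text speaks of sorted cells of E15.75 embryos, which are not analysed here. Dot1l itself, counted over the whole gene, had means of 83.5 ± 2.85 CPM (controls), 73.5 ± 12.0 CPM (Dot1l(fl/+)) and 79.6 ± 4.95 CPM (Dot1l(fl/fl)), each with its SD at n = 3. Its groups overlapped. Counts of the whole gene do not resolve the floxed exon, and the dissections hold many cells without Cre.

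Start-site sequences were looked at because the 10 genes moved together. Windows of 250 bases before to 50 bases after a start, from RefSeq on GRCm38.p6, were at hand for 5 of the genes (6 windows) and are shown for Kcne2 (chr16:92292139-92292438, plus strand), Tmem72 (chr6:116716709-116717008, minus strand), Kl (chr5:150952357-150952656, plus strand) and Slc4a5 (chr6:83237125-83237424, plus strand), the windows that held one of the letter strings below. Capitals mark TAATC or TATAAA on either strand (TAATC reads GATTA and TATAAA reads TTTATA on the other strand).
Kcne2: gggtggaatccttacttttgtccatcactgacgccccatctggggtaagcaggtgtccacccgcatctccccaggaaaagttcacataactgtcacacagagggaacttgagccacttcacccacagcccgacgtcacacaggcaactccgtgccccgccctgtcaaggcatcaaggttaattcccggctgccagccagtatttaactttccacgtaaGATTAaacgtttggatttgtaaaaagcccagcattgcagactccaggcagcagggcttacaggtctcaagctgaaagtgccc
Tmem72: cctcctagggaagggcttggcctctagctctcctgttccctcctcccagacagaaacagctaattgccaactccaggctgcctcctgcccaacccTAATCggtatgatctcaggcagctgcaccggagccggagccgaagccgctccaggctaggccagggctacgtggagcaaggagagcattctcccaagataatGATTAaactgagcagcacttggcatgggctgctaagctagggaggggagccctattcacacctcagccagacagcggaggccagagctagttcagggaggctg
Kl: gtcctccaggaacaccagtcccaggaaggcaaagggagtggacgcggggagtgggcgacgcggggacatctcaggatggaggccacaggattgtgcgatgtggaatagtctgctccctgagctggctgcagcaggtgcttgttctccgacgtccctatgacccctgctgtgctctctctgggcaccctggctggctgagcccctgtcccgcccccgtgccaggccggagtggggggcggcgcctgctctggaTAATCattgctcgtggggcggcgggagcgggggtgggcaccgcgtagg
Slc4a5: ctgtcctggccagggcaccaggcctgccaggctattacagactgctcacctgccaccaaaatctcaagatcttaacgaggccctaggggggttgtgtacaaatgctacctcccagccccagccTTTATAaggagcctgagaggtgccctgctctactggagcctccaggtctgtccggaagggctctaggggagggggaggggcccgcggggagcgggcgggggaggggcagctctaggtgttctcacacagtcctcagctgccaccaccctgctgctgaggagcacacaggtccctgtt

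TAATCC, the core that OTX2 recognises, was in 0 of the 6 windows and in 7.06% of all 32851 windows of the table. TGTTTAC, a forkhead core, was in 0 of 6 and in 3.65% of all. TATAAA was in 1 of 6, that of Slc4a5, and in 13.6% of all. The shorter TAATC, which makes up the first letters of TAATCC and was looked for after the sequences had been seen, was in 3 of 6 (Kcne2, Tmem72 and Kl) and in 22.0% of all. These are matches of letters in short windows. The Slc4a5 window lies inside the gene as GENCODE draws it (chromosome 6, 83219828 to 83304945), so it belongs to an internal start.

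Ttr, transthyretin, carries thyroid hormone and retinol and is the main secreted protein of the plexus. It was measured at 116.5, 39.5 and 106.4 CPM in the Dot1l(+/+) pools, at 79.7, 137.1 and 504.9 CPM in the Dot1l(fl/+) pools and at 19.2, 13.4 and 15.7 CPM in the Dot1l(fl/fl) pools, in the order of replicates 1 to 3. The 3 Dot1l(fl/fl) pools were thus the lowest of the 9, Dot1l(fl/+) replicate 3 was the highest by 367.9 CPM, and of the other Dot1l(fl/+) pools replicate 1 lay within the control range and replicate 2 just above it. The highest pool held 37.8 times the level of the lowest. The pools with the most and the fewest reads of Ttr had 13233 and 258, so counting error was small beside these differences. In a bulk dissection, fewer cells of a type and less RNA per cell cannot be told apart.

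**Figure D1:**
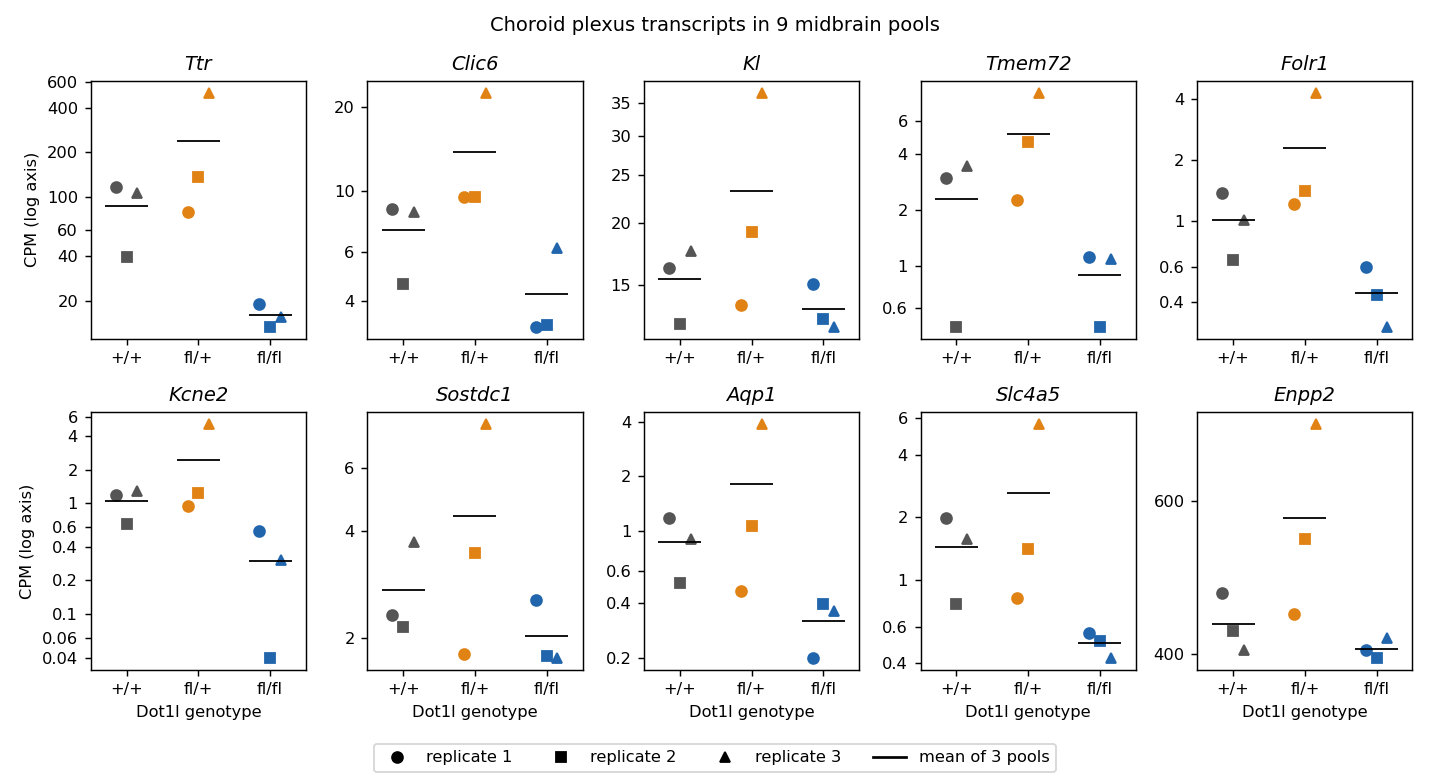
Level of each choroid plexus transcript in CPM (log axis, a range of its own in each panel) in 3 pools of each Dot1l genotype. Symbols stand for replicates 1 to 3 and bars for the mean. Dot1l(fl/+) replicate 3 is the highest point in 10 of 10 panels, and Ttr in the Dot1l(fl/fl) pools lies at 13.4 to 19.2 CPM.

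The other secreted products spread less. Enpp2 (chromosome 15, 54838901 to 54952892), autotaxin, makes lysophosphatidic acid and is known also from oligodendrocytes. It was at 470.2, 425.6 and 404.2 CPM in the Dot1l(+/+) pools, at 444.3, 542.2 and 735.9 in the Dot1l(fl/+) pools and at 403.9, 395.7 and 417.7 in the Dot1l(fl/fl) pools. Its control and Dot1l(fl/fl) pools overlapped, and 193.6 CPM separated Dot1l(fl/+) replicate 3 from the next pool. An annotated gene, Gm26684, shares exon bases with Enpp2, so the split of their reads is uncertain. Sostdc1 (chromosome 12, 36314139 to 36318452), a secreted antagonist of BMP and Wnt signals, was at 2.32, 2.15 and 3.72 CPM in the Dot1l(+/+) pools, at 1.80, 3.46 and 7.98 in the Dot1l(fl/+) pools and at 2.56, 1.78 and 1.76 in the Dot1l(fl/fl) pools. All genotypes overlapped for Sostdc1, with Dot1l(fl/+) replicate 1 among the low pools.

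Both receptors had the same highest pool. Folr1 (chromosome 7, 101858331 to 101870788), the folate receptor that brings folate into the cerebrospinal fluid, was at 1.37, 0.644 and 1.01 CPM in the Dot1l(+/+) pools, at 1.21, 1.41 and 4.27 in the Dot1l(fl/+) pools and at 0.600, 0.435 and 0.303 in the Dot1l(fl/fl) pools. The 3 Dot1l(fl/fl) pools were below every other pool for Folr1. Kl (chromosome 5, 150952607 to 150993817), Klotho, a coreceptor of FGF23, was at 16.2, 12.5 and 17.6 CPM in the Dot1l(+/+) pools, at 13.6, 19.2 and 36.8 in the Dot1l(fl/+) pools and at 15.1, 12.8 and 12.3 in the Dot1l(fl/fl) pools. Apart from the highest pool, the 3 genotypes overlapped for Kl.

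Among channels and transporters, Clic6 (chromosome 16, 92485736 to 92541243), an intracellular chloride channel, was at 8.61, 4.64 and 8.38 CPM in the Dot1l(+/+) pools, at 9.52, 9.47 and 22.5 in the Dot1l(fl/+) pools and at 3.24, 3.28 and 6.25 in the Dot1l(fl/fl) pools. It was the single member of the set whose 3 Dot1l(fl/+) pools were all above the controls. Kcne2 (chromosome 16, 92292389 to 92298129), an accessory subunit of potassium channels, was at 1.18, 0.644 and 1.28 CPM in the Dot1l(+/+) pools, at 0.940, 1.24 and 5.19 in the Dot1l(fl/+) pools and at 0.560, 0.0395 and 0.303 in the Dot1l(fl/fl) pools. Its lowest value rests on 1 count (exact 95% Poisson interval 0.0253 to 5.57 counts, counting error only), beside 14 and 5 counts in the other Dot1l(fl/fl) pools and 136 in Dot1l(fl/+) replicate 3. The 3 Dot1l(fl/fl) pools were again the lowest.

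Aqp1 (chromosome 6, 55336432 to 55348555), the water channel of the apical membrane, was at 1.18, 0.515 and 0.902 CPM in the Dot1l(+/+) pools, at 0.470, 1.06 and 3.89 in the Dot1l(fl/+) pools and at 0.200, 0.395 and 0.364 in the Dot1l(fl/fl) pools. Slc4a5, which carries sodium and bicarbonate, was at 1.99, 0.773 and 1.58 CPM in the Dot1l(+/+) pools, at 0.823, 1.41 and 5.61 in the Dot1l(fl/+) pools and at 0.560, 0.514 and 0.425 in the Dot1l(fl/fl) pools. For both, the Dot1l(fl/fl) pools were below the remaining 6 and Dot1l(fl/+) replicate 1 was near the lowest control. Tmem72 (chromosome 6, 116679063 to 116716913), a membrane protein, was at 2.98, 0.472 and 3.46 CPM in the Dot1l(+/+) pools, at 2.27, 4.66 and 8.55 in the Dot1l(fl/+) pools and at 1.12, 0.475 and 1.09 in the Dot1l(fl/fl) pools. Here control replicate 2 was as low as the lowest Dot1l(fl/fl) pool, on 11 and 12 counts.

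Levels of different genes were compared per kilobase of exon. In Dot1l(+/+), Enpp2 (75.0 CPM per kb) and Ttr (73.7) were far above the rest, followed by Clic6 (1.84), Kl (1.65), Sostdc1 (1.53), Kcne2 (0.586), Folr1 (0.440), Aqp1 (0.330), Slc4a5 (0.249) and Tmem72 (0.134). The control pools of neighbours in this order overlapped, except at the steps from Ttr to Clic6 and from Sostdc1 to Kcne2. The order of the leading pair varied over the pools: Ttr was at 425.8 and Enpp2 at 127.3 CPM per kb in Dot1l(fl/+) replicate 3, while means in Dot1l(fl/fl) were 13.5 for Ttr and 70.2 for Enpp2. Clic6 and Kcne2 are both on chromosome 16, 187606 bases apart. Of the genes between them that passed the filter on low counts, Smim11 had an SD of log2 CPM of 0.131 and Rcan1 of 0.0645 over the 9 libraries. That of Clic6 was 0.869 and that of Kcne2 1.48, both chosen for their spread. The r with Ttr was -0.103 for Smim11 and 0.684 for Rcan1.

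The spread that chose the genes was widest for Ttr, with an SD of log2 CPM of 1.73 over the 9 pools. It was 1.48 for Kcne2, 1.37 for Tmem72, 1.12 for Aqp1, 1.10 for Slc4a5, 1.04 for Folr1, 0.869 for Clic6, 0.693 for Sostdc1, 0.493 for Kl and 0.289 for Enpp2. The median over all 17671 genes tested was 0.129. An SD of 0.5 was exceeded by 8 of the 10 genes and by 5.44% of all genes. Kl, at 0.493, stood just below it, and the nearest gene of the set above it was Sostdc1, at 0.693. Compared with counting error, the 9 pools varied 28.4 times (Folr1) to 5021.7 times (Ttr) more than equal shares would (chi-square per degree of freedom), a size that the choice of genes by their spread largely fixed. Within genotypes the SD was still 0.947 for Ttr, 1.08 for Tmem72 and 1.06 for Kcne2, against a median of 0.126 over all genes, so the spread was not only between genotypes.

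All 10 genes were highest in Dot1l(fl/+) replicate 3, the pool in which 14.9% of all tested genes were highest. Its level over the median of the other 8 pools was 8.47 for Ttr, 7.90 for Aqp1, 7.03 for Slc4a5, 6.55 for Kcne2, 5.15 for Folr1, 5.04 for Tmem72, 3.57 for Sostdc1, 3.08 for Clic6, 2.56 for Kl and 1.75 for Enpp2. The median of this ratio was 5.10 for the 10 genes and 1.00 for all genes, of which 1% exceeded 1.94. Without this pool the SD was still 1.39 for Ttr, 1.19 for Tmem72 and 1.19 for Kcne2, and it was 0.240 for Kl and 0.151 for Enpp2.

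**Figure D2:**
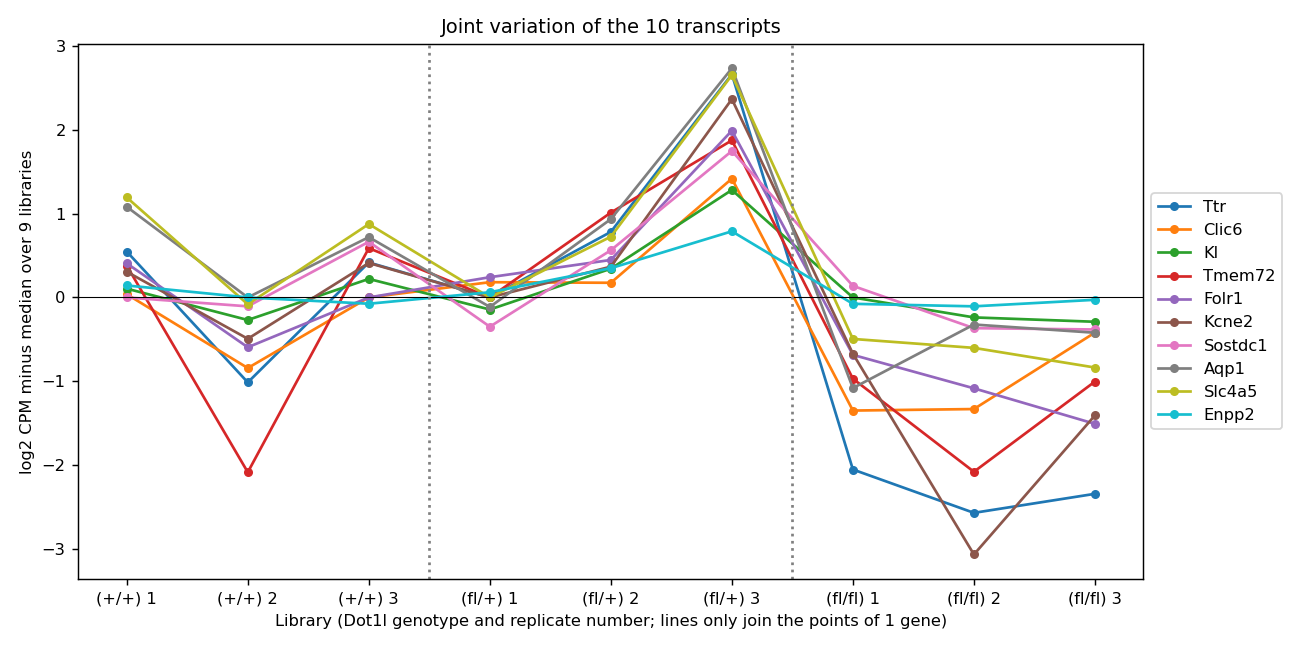
Log2 CPM of each of the 10 genes minus its median over the 9 libraries, by library in order of genotype and replicate; lines only join the points of 1 gene. The curves share a peak in Dot1l(fl/+) replicate 3 and lie mostly below the median in the Dot1l(fl/fl) pools, with the widest swing for Ttr and Kcne2 and the narrowest for Enpp2.

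The genes varied together. Over the 9 libraries, the 45 pairs had a Pearson r of log2 CPM from 0.729 (Clic6 with Sostdc1) to 0.968 (Kl with Sostdc1), with a median of 0.866. With genotype means removed the pairs had 0.524 to 0.978 (median 0.797), and without Dot1l(fl/+) replicate 3 they had 0.350 to 0.947 (median 0.723). Spearman's rho was 0.417 to 0.967 (median 0.833). The points share their library and its total, and the genes were chosen together, so these values are a description. Among genes tested, r with Ttr was 0.8 or more for 9 of the 9 other genes of the set and for 0.821% of all genes.

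On the linear scale the levels were set against that of Ttr. A straight line on the CPM of Ttr took up 0.908 (Tmem72) to 0.989 (Kcne2) of the variance over the 9 libraries, much of it in 1 pool. Without Dot1l(fl/+) replicate 3 the share was 0.451 for Sostdc1, 0.572 for Enpp2, 0.714 for Kl, 0.759 for Clic6 and 0.803 (Slc4a5) to 0.898 (Folr1) for the other 5. The lines differed in where they met a Ttr level of 0. Expressed as a percent of the control mean, this intercept was 90.6 for Enpp2, 75.8 for Kl, 60.0 for Sostdc1, 58.0 for Clic6, 40.9 for Tmem72, 35.6 for Folr1, 22.2 for Slc4a5, 18.0 for Aqp1 and 12.1 for Kcne2. The intercept was thus near the control mean for Enpp2 and far below it for Kcne2, Aqp1 and Slc4a5. For every 100 CPM of Ttr, the lines gained 68.4 CPM of Enpp2, 4.92 of Kl, 3.71 of Clic6, 1.61 of Tmem72, 1.24 of Sostdc1, 1.05 of Slc4a5, 0.993 of Kcne2, 0.779 of Folr1 and 0.734 of Aqp1. Because 1 pool lies far from the rest, the lines were drawn again without it: the slopes were 0.828 (Sostdc1) to 1.25 (Clic6) times as steep for 8 genes and 1.80 times as steep for Tmem72, whose intercept fell to 7.03% of the control mean, the lowest of the 9. That of Kcne2 rose to 19.8%, and those of the other 7 were 22.9% (Slc4a5) to 89.9% (Enpp2).

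**Figure D3:**
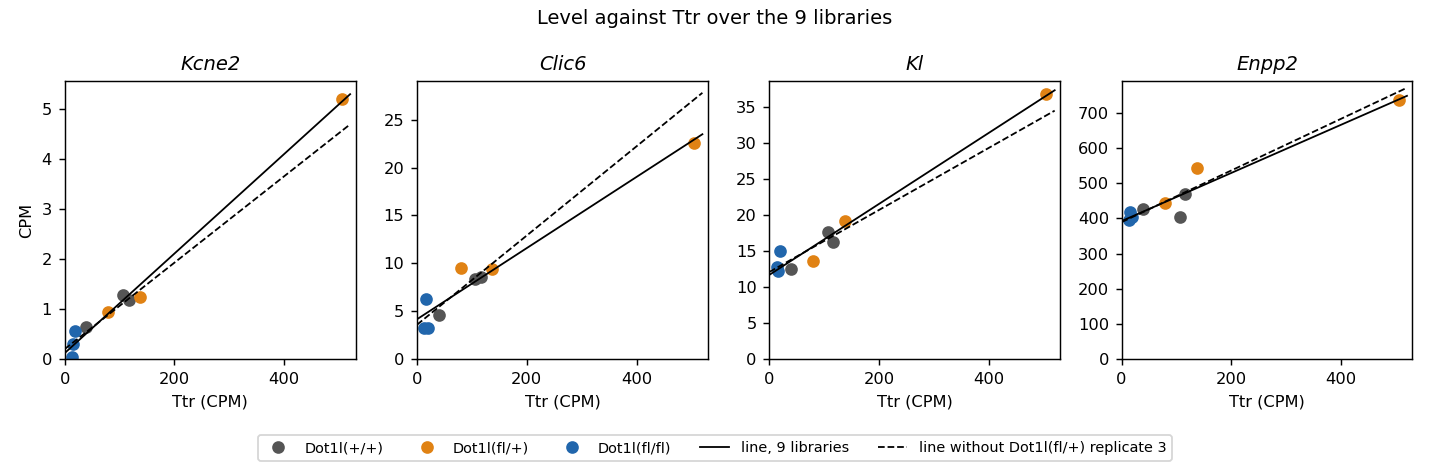
CPM of Kcne2, Clic6, Kl and Enpp2 against CPM of Ttr in the 9 libraries, coloured by genotype, with straight lines over all libraries (solid) and without Dot1l(fl/+) replicate 3 (dashed). Both axes are linear and start at 0. The solid lines meet a Ttr level of 0 at 12.1% of the control mean for Kcne2 and at 90.6% for Enpp2, the dashed lines at 19.8% and 89.9%.

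The same pools were also set on a common baseline. The gain of Dot1l(fl/+) replicate 3 over the Dot1l(fl/fl) mean was 6.85 times that of the control mean for Ttr (488.9 against 71.4 CPM). For the other 9 genes the ratio was 5.40 (Slc4a5) to 12.0 (Enpp2), with a median of 6.66. It was 11.4 for Kl and 12.0 for Enpp2, whose control means exceeded the Dot1l(fl/fl) mean by only 2.05 ± 1.74 and 27.6 ± 20.5 CPM (difference ± SE, n = 3 each). That difference was also uncertain for Sostdc1 (0.695 ± 0.564), Tmem72 (1.41 ± 0.949) and Clic6 (2.95 ± 1.63 CPM). It was larger beside its SE for Folr1, Kcne2, Aqp1 and Slc4a5. The 2 gains share the Dot1l(fl/fl) mean.

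The study compared the genotypes, so each difference is given with its error. Ttr had a log2 fold change of 1.46 (SE 0.52) in Dot1l(fl/+) against Dot1l(+/+), of -2.44 (SE 0.60) in Dot1l(fl/fl) against Dot1l(+/+), and of -3.90 (SE 0.61) in Dot1l(fl/fl) against Dot1l(fl/+). By edgeR's quasi-likelihood test with Benjamini-Hochberg adjustment over the 17671 genes tested, 0 of the 10 genes passed an adjusted p of 0.05 in any of the 3 comparisons, as did 0% of all genes. The adjusted p of Ttr was 0.541, 0.999 and 0.350, in the order above, and in the last comparison no gene had a lower one. DESeq2 called 0, 0 and 2 of the 10 (Ttr and Folr1 in the last). In the first comparison it gave no adjusted p for Folr1, Kcne2, Aqp1 and Slc4a5, so these could not be called there. The study's methods describe paired sets of the 3 genotypes, without saying that a replicate number marks a set. With the replicate number as a block, edgeR called 0, 0 and 2, namely Ttr and Clic6 in the last comparison (adjusted p 0.0214 each). The 3 comparisons share their groups in pairs and are not independent.

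In Dot1l(fl/+) against Dot1l(+/+), 10 of 10 log2 fold changes were above 0, with a median of 1.00. At an unadjusted p under 0.05, 6 genes were higher (Ttr, Clic6, Kl, Tmem72, Folr1 and Enpp2), as were 4.3% of all genes, and the pools did not overlap for 1 gene, Clic6, as for 6.84% of all genes. Clic6 had a log2 fold change of 0.94 (SE 0.34) and Enpp2 of 0.41 (SE 0.13). The count of 6 rested on single pools: it was 1 without Dot1l(fl/+) replicate 3, where the log2 fold change of Ttr was 0.31 (SE 0.33), 1 without control replicate 2, and 10 without Dot1l(fl/+) replicate 1. Without Dot1l(fl/+) replicate 3 the values of Aqp1, Slc4a5 and Sostdc1 turned to -0.16, -0.35 and -0.05.

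In Dot1l(fl/fl) against Dot1l(+/+), 10 of 10 log2 fold changes were below 0, with a median of -1.26. They ran from -0.09 (SE 0.13) for Enpp2, -0.20 (SE 0.27) for Kl and -0.42 (SE 0.44) for Sostdc1 to -1.77 (SE 0.81) for Kcne2 and -2.44 for Ttr. At an unadjusted p under 0.05, 5 genes were lower (Ttr, Clic6, Tmem72, Kcne2 and Slc4a5), as were 1.72% of all genes. The pools did not overlap for 5 genes, Ttr, Folr1, Kcne2, Aqp1 and Slc4a5, as for 5.25% of all genes. Leaving out 1 control or 1 Dot1l(fl/fl) pool took the count of 5 to 1 (control replicate 1, control replicate 3 or Dot1l(fl/fl) replicate 2), to 2 (Dot1l(fl/fl) replicate 1 or 3) or to 6 (control replicate 2). Leaving out Dot1l(fl/+) replicate 3, which is in neither group but enters the shared estimate of spread, lowered the SE of Ttr to 0.34 at the same log2 fold change of -2.44, and its adjusted p was then 0.0388.

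In Dot1l(fl/fl) against Dot1l(fl/+), 10 of 10 were below 0, with a median of -2.33 and a range from -0.50 (SE 0.13) for Enpp2 to -3.90 for Ttr. All 10 had an unadjusted p under 0.05, as did 2.87% of all genes in that direction. The pools did not overlap for 8 genes, the exceptions being Kl and Sostdc1, as for 5.14% of all genes. Without Dot1l(fl/+) replicate 3 the count was 8, the log2 fold change of Ttr was -2.75 (SE 0.36) and its adjusted p was 0.0274, while Clic6 was at -1.20 and Kcne2 at -1.85. Since the genes were selected on their spread over these pools, these counts say nothing further about the genotype.

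**Figure D4:**
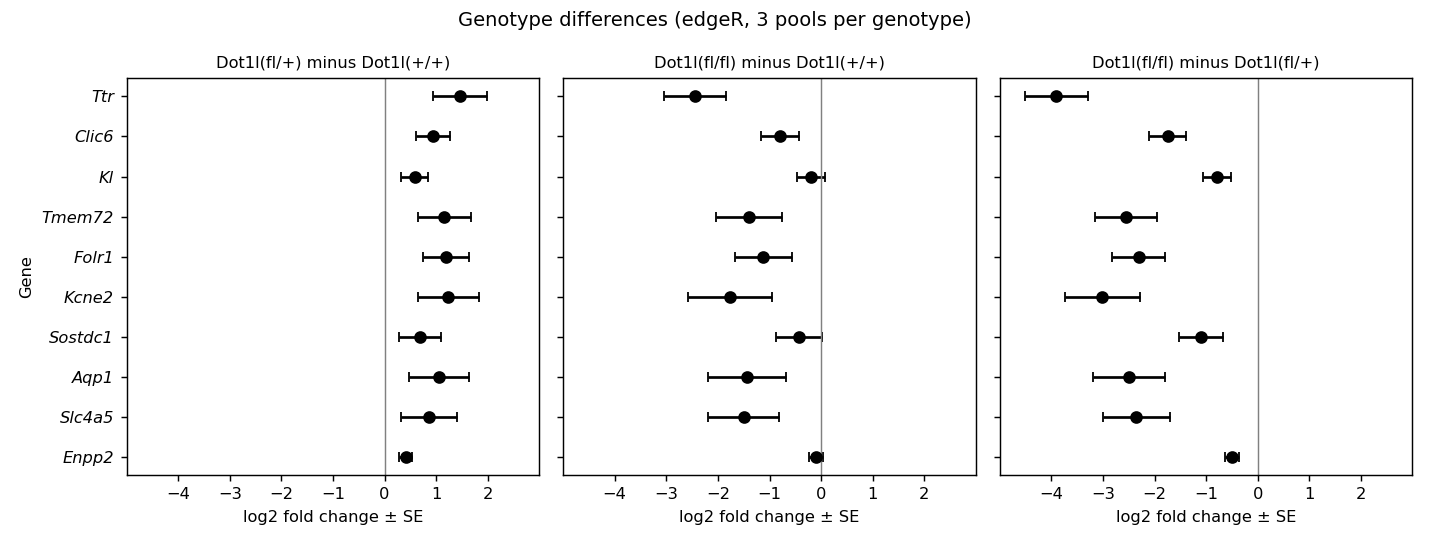
Log2 fold change (points) with SE (bars) of the 10 genes in the 3 genotype comparisons, from edgeR on 3 pools per genotype. Points lie above 0 in the first panel and below 0 in the others, farthest for Ttr at -3.90 in Dot1l(fl/fl) minus Dot1l(fl/+). No gene passed an adjusted p of 0.05.

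Other genes of the plexus epithelium were taken from a list of 30, of which 27 passed the filter. Of these, 19 were highest in Dot1l(fl/+) replicate 3, with a median level of 1.43 times that of the other pools (range 0.789 to 6.13), against 5.10 for the 10 genes above. In Dot1l(fl/fl) against Dot1l(fl/+), 22 of 27 log2 fold changes were below 0 (median -0.23), 11 had an unadjusted p under 0.05, all of them lower (2.87% of all genes were), and 0 passed the adjusted threshold. In Dot1l(fl/+) against Dot1l(+/+) 4 were higher at that level, beside 4.3% of all genes (median 0.16), and in Dot1l(fl/fl) against Dot1l(+/+) 1 was lower, Kcnj13, beside 1.72% of all genes (median -0.13). The list held genes that plexus shares with other brain cells: Slc12a2, a cotransporter of sodium, potassium and chloride, had the highest level and ran only from 201.1 to 235.9 CPM, and Cab39l from 43.2 to 50.3 CPM. F5, coagulation factor V, ran from 1.03 to 15.3 CPM and Cldn2, a tight junction claudin, from 0.472 to 5.38 CPM. Cox8b, Krt8 and Steap1 were too low to be tested.

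The genes most like the set were sought by rule, as those with the highest r to the mean of the 10 standardized profiles among 954 genes with an SD of log2 CPM of 0.5 or more. The first were Calml4 (0.968), F5 (0.962), Mfrp (0.952), Cldn2 (0.947) and 1500015O10Rik (0.946), followed by Prr32, Col8a2, Drc7, Kcnj13 and Gm15704 (0.936 to 0.889). Of these 10, 5 were in the list of other plexus genes, and 10 of 10 were highest in Dot1l(fl/+) replicate 3, the peak of the mean profile they were chosen to match. The measure is over 9 libraries.

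Genes of other cells in the dissection were set beside the plexus genes, and their part in the result was not tested. Ependymal and ciliary genes lay at 1.40 times the median of the other pools in Dot1l(fl/+) replicate 3 (12 of 14 highest there), with summed levels of 89.7 to 99.0 CPM in the controls, 87.2 to 115.1 in the Dot1l(fl/+) pools and 84.5 to 96.9 in the Dot1l(fl/fl) pools. Stromal and meningeal genes lay at 0.670 times (0 of 12 highest there), at 222.7 to 305.8, 189.8 to 275.4 and 226.7 to 288.1 CPM. Of their log2 fold changes, 11 of 12 were below 0 in Dot1l(fl/+) against controls (median -0.27). In Dot1l(fl/fl) against Dot1l(fl/+) 11 were above 0 (median 0.22), so both directions were opposite to those of the plexus genes. In Dot1l(fl/fl) against controls 8 were below 0 (median -0.02). Endothelial genes were at 1.02 times (2 of 10 highest there), at 324.3 to 351.2, 325.4 to 340.5 and 326.6 to 338.1 CPM. Oligodendrocyte genes, the list nearest to the other known source of Enpp2, were at 1.09 times (7 of 12 highest there), at 10928.2 to 11973.5, 11085.6 to 12490.9 and 11142.8 to 11661.6 CPM. In Dot1l(fl/fl) against Dot1l(fl/+), 5 of the 12 (Mbp, Mag, Cnp, Cldn11 and Mal) were lower at an unadjusted p under 0.05, beside 2.87% of all genes. The median log2 fold change of the list was -0.10. In Dot1l(fl/+) against controls 3 (Mog, Cnp and Cldn11) were higher at that level, beside 4.3% of all genes, with a median of 0.08. Cnp had r = 0.806 with Ttr over the 9 libraries. Astrocyte genes were at 0.920 times (0 of 8), at 4406.0 to 4793.2, 4203.8 to 4768.3 and 4478.8 to 4702.8 CPM. Enpp2 (395.7 to 735.9 CPM) and Ttr (13.4 to 504.9 CPM) made up most of the summed level of the 10 plexus genes. Against these lists that sum was 487.4 to 622.5, 554.7 to 1335.6 and 428.7 to 456.1 CPM, which is 3.12 times between its lowest and highest pool. The same ratio was 1.61 or less for each of these 5 lists. It was 18.1 for the hypothalamic list described below. For the 30 other plexus genes, with Slc12a2 the largest part of their summed level (524.0 to 657.0 CPM), it was 1.25. The 10 genes were chosen for their spread over these pools, so a wide ratio was largely fixed by that choice.

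The hypothalamic list of 10 genes also differed between pools. Its summed level ran from 7.31 to 132.6 CPM, mostly from Pmch, the precursor of melanin-concentrating hormone, at 99.4 CPM in Dot1l(fl/+) replicate 1, 49.6 in Dot1l(fl/+) replicate 3 and 7.24 in control replicate 1, and at 0.472 to 1.58 in the other pools. The pool highest for Pmch was thus not the pool highest for Ttr, although Dot1l(fl/+) replicate 3 was high for both. Of these hypothalamic genes, 5 passed the filter. In Dot1l(fl/fl) against Dot1l(fl/+), 4 of the 5 (Pmch, Trh, Pomc and Nkx2-1) were lower at an unadjusted p under 0.05, beside 2.87% of all genes, and in Dot1l(fl/+) against controls 2 of the 5 (Pmch and Trh) were higher, beside 4.3%. The r with Ttr over the 9 libraries was 0.700 for Pomc, 0.633 for Trh, 0.547 for Pmch and 0.538 for Nkx2-1, but -0.117 for Sim1. The log2 fold change of Sim1 was 0.17 (SE 0.22) in Dot1l(fl/fl) against Dot1l(fl/+) and -0.22 (SE 0.22) in Dot1l(fl/+) against controls. Apart from Sim1, these genes thus moved partly with the plexus genes, and their part in the result was not tested. Dopamine neuron genes were at 0.819 times the other pools in Dot1l(fl/+) replicate 3, and their summed levels were 626.5 to 691.6 CPM in the controls, 490.6 to 632.2 in the Dot1l(fl/+) pools and 472.9 to 504.0 in the Dot1l(fl/fl) pools. The Dot1l(fl/fl) pools were therefore low both for the plexus genes and for dopamine neuron genes. In Dot1l(fl/fl) against Dot1l(+/+), 10 of 10 dopamine neuron genes were below 0 (median log2 fold change -0.52). Of these, 8 were lower at an unadjusted p under 0.05, beside 1.72% of all genes. In Dot1l(fl/+) against controls, where the plexus genes were above 0, 9 of 10 were below 0. Their r with Ttr ran from -0.324 to 0.805 (Lmx1b).

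**Figure D5:**
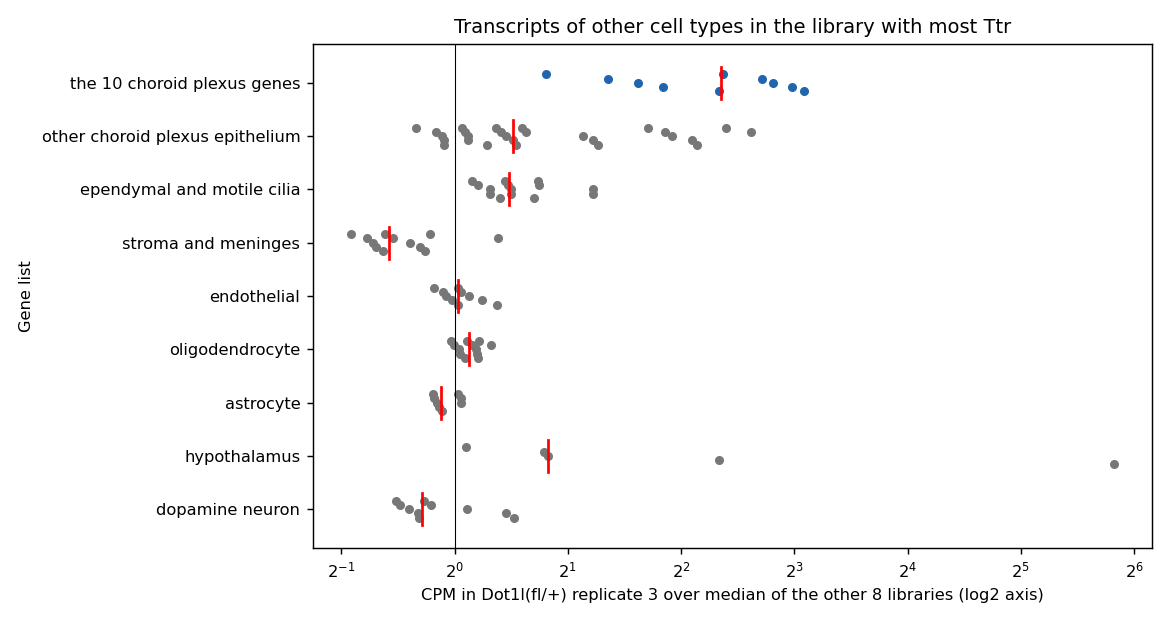
CPM in Dot1l(fl/+) replicate 3 over the median of the other 8 libraries (log2 axis), with 1 point per tested gene and a red line at the median of each list. The 10 choroid plexus genes have a median of 5.10 and range from 1.75 to 8.47, and the medians of the other lists lie between 0.670 and 1.77. Pmch is the point at the far right of the hypothalamic list.

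Single genes and the library total were related to Ttr over the 9 libraries, with two-sided exact permutation tests adjusted by Benjamini-Hochberg over a family of 8 relations, of which 7 are given. Ttr with Otx2, a transcription factor made by plexus epithelium, gave r = 0.738 (exact permutation p = 0.0241, adjusted 0.193) and rho = 0.683 (exact p = 0.0503, adjusted 0.403), with r = 0.731 without the 2 pools farthest from the median and 0.550 (exact permutation p = 0.155, adjusted 0.413) without Dot1l(fl/+) replicate 3 alone. With Foxj1, the regulator of motile cilia, r was 0.541 (exact permutation p = 0.132, adjusted 0.369) and rho 0.467 (exact p = 0.213, adjusted 0.425). It was 0.0753 without those 2 pools. Of single pools, r was 0.195 without Dot1l(fl/+) replicate 3, 0.486 without Dot1l(fl/fl) replicate 2 and 0.936 (exact permutation p adjusted 0.00774) without Dot1l(fl/+) replicate 2, so the value rested on Dot1l(fl/+) replicates 2 and 3. With Pmch r was 0.547 (exact permutation p = 0.138, adjusted 0.369) and rho 0.250 (exact p = 0.521, adjusted 0.694), with r = 0.223 without the 2 pools and 0.30 without Dot1l(fl/+) replicate 3 alone. None of the 7 relations passed the adjusted threshold over all 9 libraries on this scale, and on the CPM scale, where Dot1l(fl/+) replicate 3 lies far from the rest, that of Ttr with Otx2 did (r = 0.788, exact permutation p adjusted 0.0381).

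With Slc6a3, the dopamine transporter, r was 0.468 (exact permutation p = 0.199, adjusted 0.398) and rho 0.517 (exact p = 0.162, adjusted 0.425), with r = 0.837 without the 2 pools, 0.881 (exact permutation p = 0.0119, adjusted 0.0954) without Dot1l(fl/+) replicate 3 alone, and -0.660 within genotypes (exact permutation p = 0.0526, adjusted 0.409), so the pooled direction came from the genotype means. With the stromal collagen gene Col1a2 r was -0.170 (exact permutation p = 0.657, adjusted 0.876) and rho -0.0833 (exact p = 0.843, adjusted 0.843), and with the endothelial Pecam1 r was 0.111 (exact permutation p = 0.776, adjusted 0.880) and rho 0.117 (exact p = 0.776, adjusted 0.843). Without the 2 pools these were 0.208 and 0.265. With the library total r was 0.424 (exact permutation p = 0.266, adjusted 0.425) and rho 0.550 (exact p = 0.133, adjusted 0.425), with r = 0.586 without the 2 pools. That r was 0.136 without Dot1l(fl/fl) replicate 3, and rho was 0.762 (exact permutation p = 0.0368, adjusted 0.294) without control replicate 1, so a relation of Ttr to depth was not settled at this number of pools.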

How the data were processed

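Total RNA of dissected midbrain was sequenced by the authors on an Illumina NextSeq after a directional NEBNext Ultra library preparation. The submitters' processing notes name bcl2fastq 2.17, Trimmomatic 0.30, DESeq2 1.10.1 and the build GRCm38.p4. The aligner, the counter and the annotation release are not given in the sources used here. The authors deposited raw counts per Ensembl gene, 1 file per library. Their deposited comparison tables (fold changes and p-values) were not used.

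Symbols and exon lengths came from GENCODE M21 (47224 of 47729 identifiers matched). Counts were scaled with TMM factors (0.988 to 1.01) to CPM, and log2 CPM used a prior count of 2. edgeR 4.0.16 (R 4.3.3) was run as a quasi-likelihood fit in which genotype was the sole term and the 9 libraries shared 1 estimate of spread, after filterByExpr (17671 genes, 10 of the 10 members among them), with Benjamini-Hochberg adjustment. Where a group rose above the filter in its own libraries only, a gene could enter through that group. DESeq2 1.42.0 was an alternative, besides other normalizations, filters and library sets. p-values measure the spread between pools. Correlations, lines and exact permutation tests used Python 3.11.15 with numpy 2.4.6 and scipy 1.17.1, and pairs were not blocked by replicate number. Counting intervals cover counting error only.

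The genes, the lists and the tests were chosen with earlier results of these data known. Named genes were the 10 members, the partners in the relations, up to 4 genes per other list by level, and the 10 genes most like the members. F5, Cldn2, Kcnj13, Cab39l, the genes between Kcne2 and Clic6 and the 3 plexus genes too low to be tested were named after their values were seen. So were the oligodendrocyte, hypothalamic and dopamine neuron genes named by their test or their r with Ttr. The remaining relation of the family of 8 is not reported here.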

Additional observations from a re-analysis of the deposited data

How the results depend on the processing

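Adjusted calls depended on the fit. Without a filter on low counts, edgeR called 8, 5 and 10 of the 10 genes in Dot1l(fl/+) against Dot1l(+/+), Dot1l(fl/fl) against Dot1l(+/+) and Dot1l(fl/fl) against Dot1l(fl/+) (251, 118 and 164 of all genes), where the prior degrees of freedom of the variance rose from 7.35 to 1250. In the same order the filtered fit called 0, 0 and 0, and DESeq2 0, 0 and 2 (7, 3 and 11 of all genes). DESeq2 gave no adjusted p for Folr1, Kcne2, Aqp1 and Slc4a5 in Dot1l(fl/+) against Dot1l(+/+). With only the 2 genotypes compared, the calls were 0, 1 and 0 (1, 4 and 0 of all genes). The study's methods describe paired sets, but no label ties a replicate number to a set, and the check made here left the pairing unsettled (correlations of same-numbered pools 0.0222 to 0.317, all above 0 but not all over 0.1). With the replicate block, 2 genes, Ttr and Clic6, were called in Dot1l(fl/fl) against Dot1l(fl/+) (adjusted p 0.0214), and 3 of all genes there and 3 in Dot1l(fl/fl) against Dot1l(+/+). Leaving out 1 library at a time gave 0 to 0, 0 to 1 and 0 to 1 calls among the 10 genes (0 to 5, 0 to 4 and 0 to 12 of all genes).

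Counts at an unadjusted p under 0.05, 6, 5 and 10 as reported, were 10, 8 and 10 without a filter. They became 2 and 1 for Dot1l(fl/+) and Dot1l(fl/fl) against controls with a robust variance, 3 for Dot1l(fl/+) against controls with DESeq2, and, with 10 counts or more in every library, which left 6 of the 10 genes to test, 3 of 6 and 6 of 6 for Dot1l(fl/fl) against controls and against Dot1l(fl/+) (5 of 6 for Dot1l(fl/+) against controls). Leaving out 1 library gave 1 to 10, 1 to 7 and 8 to 10. With all 9 libraries no log2 fold change of the 10 genes changed sign under any alternative. Without Dot1l(fl/+) replicate 3, 3 did, in Dot1l(fl/+) against Dot1l(+/+): Sostdc1 (-0.055, in a range over single libraries up to 1.05), Aqp1 (-0.16, up to 1.51) and Slc4a5 (-0.35, up to 1.27). The causes were not tested.

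Among relations, Ttr with Otx2 had r = 0.788 on the CPM scale, now past the adjusted threshold, and 0.520 with genotype means removed. Signs turned for Ttr with Slc6a3 (-0.0365 on the CPM scale, -0.660 with genotype means removed), with Pecam1 (-0.145 with genotype means removed) and with the library total (-0.000316, likewise). They also turned for Ttr with Col1a2 (0.208 without the 2 farthest pools). Leaving out 1 library gave r from 0.195 to 0.936 for Foxj1, -0.458 to 0.227 for Col1a2, -0.108 to 0.237 for Pecam1, 0.316 to 0.881 for Slc6a3, 0.30 to 0.665 for Pmch, 0.550 to 0.862 for Otx2 and 0.136 to 0.557 for the library total. The SD of log2 CPM moved by over 1.5 times only without Dot1l(fl/+) replicate 3, for Kl (0.240), Sostdc1 (0.412) and Enpp2 (0.151). The lines on Ttr without that pool were added after the data were seen. Outside the highest pool, Folr1, Kcne2, Aqp1 and Slc4a5 rest on 1 to 42 counts, which limits what single values show.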
